A study of Mus musculus with 6 samples.

Results

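Germline genes are a group of genes used in oocytes, sperm and their precursors and kept silent elsewhere, and many of them carry a CpG-rich promoter that is methylated in other cells. Described here are 9 loci, given by the windows of Mael, Sycp1, Asz1, Stk31, Tex101, Sycp3, Ddx4, Dazl and Tdrd1 on mouse build mm9, each the gene with about 5 kb on either side. The members were all cytosines listed inside these 9 windows. There were 251 of them among 750119 cytosines listed anywhere in the series, and 126 of the 251 were listed in all 6 libraries. Every listed cytosine in a window was taken, whatever its level, while the genes themselves were chosen with earlier results of these data known.

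The data are 6 libraries of reduced representation bisulfite sequencing (RRBS) from E14 cells, a mouse embryonic stem cell line. In RRBS the enzyme MspI cuts DNA at CCGG, which enriches CpG-rich sequence, and bisulfite leaves 5-methylcytosine and 5-hydroxymethylcytosine reading as cytosine. Each library is 1 group (the library here called Dnmt1 by its treatment label has a title naming Dnmt1a): cells with a control short hairpin RNA (shRNA), with shRNA against Tet1 and Tet2 together, against Dnmt1, against Dnmt3a, against Dnmt3b, or against Dnmt3a and Dnmt3b together. All groups share the same cell line and all carry an shRNA, and the extent of each knockdown was not measured in these files.

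With 1 library per group there was no test between conditions, and every difference below compares 2 libraries. A level is the share of methylated reads at 1 cytosine on 1 strand, in percent, and the depth behind it is unknown. An SD given after a mean is over cytosines, which neighbour each other on the same reads and are not replicates. All 5 differences from control share the control library. The files listed from 445016 cytosines (Dnmt1) to 604227 (Tet1 and Tet2), and the member windows held from 151 (Dnmt1) to 198 (Dnmt3b).

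As background, DNMT1 copies methylation onto newly made DNA strands, DNMT3A and DNMT3B add methylation to unmethylated sites, and TET1 and TET2 oxidise 5-methylcytosine. Germline promoters are known to gain methylation around implantation, with DNMT3B as the leading enzyme, and to be bound in embryonic stem cells by a Polycomb complex that holds MGA and E2F6. MGA binds the E-box letters CACGTG and E2F6 the letters TCCCGC or close variants of them. The members fall into 3 roles: the synaptonemal complex that joins meiotic chromosomes (Sycp1, Sycp3), RNA regulation and the piRNA pathway that silences transposons (Mael, Asz1, Tdrd1, Ddx4, Dazl, and the Tudor domain protein Stk31), and the germ cell surface (Tex101).

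Gene starts were placed on mm9 by matching the spacing and the 5-base context of the listed cytosines to RefSeq promoter sequences (table for GRCm38.p6, from 250 bases before to 50 after the start). All 9 members had a promoter sequence and 7 could be placed. Those of Sycp3 and Tdrd1 could not. The upstream 250 bases of 3 members are shown because they hold CpGs whose levels are given below. They run 5′ to 3′ on the minus strand, and capitals mark the CpGs with a level in all 6 libraries, on either strand: 8 in Asz1 (chr6:18059062-18059311, mm9), 4 in Mael (chr1:168168876-168169125) and 3 in Tex101 (chr7:25457070-25457319).
Asz1: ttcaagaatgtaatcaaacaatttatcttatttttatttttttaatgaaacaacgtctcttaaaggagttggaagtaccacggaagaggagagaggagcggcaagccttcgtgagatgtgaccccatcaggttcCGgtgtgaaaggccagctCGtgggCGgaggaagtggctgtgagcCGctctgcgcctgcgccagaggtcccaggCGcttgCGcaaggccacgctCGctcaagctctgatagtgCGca
Mael: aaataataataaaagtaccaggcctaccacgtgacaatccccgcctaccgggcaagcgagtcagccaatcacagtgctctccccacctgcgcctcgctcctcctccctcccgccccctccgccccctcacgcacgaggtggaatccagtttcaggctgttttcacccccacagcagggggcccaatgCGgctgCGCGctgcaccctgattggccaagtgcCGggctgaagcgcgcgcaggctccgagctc
Tex101: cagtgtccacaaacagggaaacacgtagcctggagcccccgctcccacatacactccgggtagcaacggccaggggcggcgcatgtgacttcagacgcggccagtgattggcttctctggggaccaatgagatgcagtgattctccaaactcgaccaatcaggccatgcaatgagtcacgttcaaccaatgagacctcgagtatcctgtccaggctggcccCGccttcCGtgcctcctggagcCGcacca

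The letters CACGTG, read on both strands, occurred in a promoter of 6 of the 9 members, against 7.15% of the 32851 promoters in the table. These letters hold a CpG, and the member promoters are richer in CpGs than most (given below). A comparison with promoters of like CpG content was not made. The 6 stretches are shown with the motif in capitals, each in the direction of its gene, because the motif was present in 6 members. Its first base lay 223 bases before the gene start in Mael, 94 in Sycp1, 55 in Stk31, 64 in Sycp3 (which has a second copy 43 bases before), 29 in Ddx4 and 11 in Tdrd1.
Mael: ccaggcctacCACGTGacaatccccg
Sycp1: gagaacccggCACGTGggaagggaaa
Stk31: gccggccaccCACGTGaccagggctg
Sycp3: cgttggctccCACGTGagaacgggca
Ddx4: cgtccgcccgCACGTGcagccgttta
Tdrd1: gggctgcgcgCACGTGggagtaaact

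Asz1, Tex101 and Dazl had no CACGTG in this window. TCCCGC occurred in 4 members (Mael, Sycp1, Sycp3, Ddx4) and in 19.98% of all promoters. The MspI letters CCGG were present in all 9 and in 52.8% of all promoters. CpGs numbered from 15 (Sycp3) to 38 (Ddx4) in 300 bases, where the median promoter of the table held 7. Of the CpGs inside CACGTG at the 4 placed members, 1 was listed, at Stk31 (position 49345485), and it read 0% in each of the Tet1 and Tet2, the Dnmt3a and the double Dnmt3 libraries.

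In control cells the member promoters stood among the most methylated that could be read. A promoter level is the mean over at least 4 cytosines listed in all 6 libraries within the 300 bases, and 4773 autosomal promoters had one. Their median was 0.030%, and 114 of them (2.39%) reached 20%. Among the members 5 had a level, from lowest to highest: Ddx4 21.1% ± 8.9 (SD, 9 cytosines), Mael 23.5% ± 9.7 (6), Asz1 68.3% ± 11.6 (11), Dazl 82.6% ± 11.4 (8) and Tex101 86.0% ± 4.4 (5). All 5 thus lay above 20%, and 3 of them above 50%, a level reached by 1.38% of all promoters. Ddx4 and Mael, and likewise Dazl and Tex101, overlapped in the range of their cytosines, while the highest cytosine of Mael (34.5%) was below the lowest of Asz1 (50.6%).

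**Figure D1:**
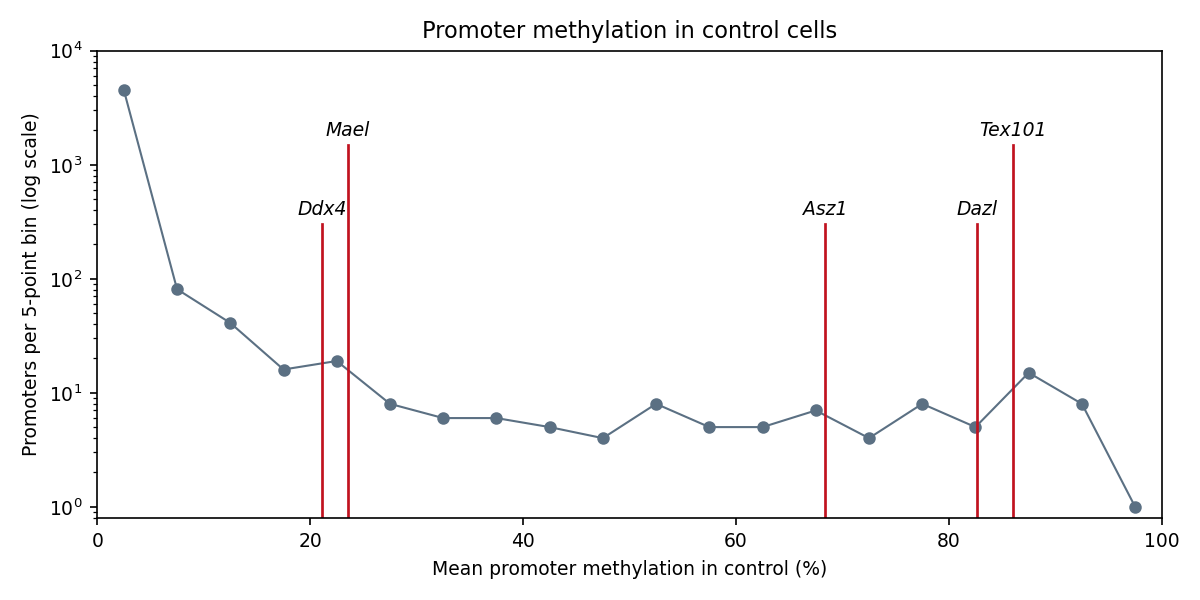
Number of promoters (y axis, log scale) by mean methylation level in control (x axis, bins of 5 percentage points, points at bin centres) over 4773 placed autosomal promoters. Red lines mark the 5 members with a promoter level, from Ddx4 at 21.1% to Tex101 at 86.0%, all outside the mass of promoters near 0%.

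The remaining members could be read in part. Stk31 went against the description of a methylated promoter where it was listed: 5 cytosines from 63 to 22 bases before its start (chr6:49345475-49345516) averaged 9.48% for Tet1 and Tet2, 0% for Dnmt3a and 1.66% in the double knockdown. The other 3 libraries, control among them, listed none of these 5. Another 7 cytosines, 244 to 284 bases after the start, were listed for Dnmt1 alone and averaged 6.50%.

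At Sycp1, whose protein forms the transverse filaments of the synaptonemal complex, 6 cytosines around the start (chr3:102740008-102740042) were listed in only 2 libraries. They averaged 44.1% ± 13.3 (SD) for Dnmt3a and 72.2% ± 8.6 for Dnmt3b, and each of the 6 was lower for Dnmt3a. The 6 lie close together on the minus strand and can share the same reads, so they are not 6 separate comparisons. A single Sycp1 cytosine, 599 bases upstream (position 102740622), was listed throughout. It read 80.3% in control, 84.5% for Tet1 and Tet2, 5.5% for Dnmt1, 75.1% for Dnmt3a, 82.9% for Dnmt3b and 74% in the double knockdown, so that only Dnmt1 stood apart.

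The Tdrd1 window told little of Tdrd1 itself. Of its 66 cytosines, 27 lay within 1 kb of the start of Ccdc186 and 24 within 1 kb of the start of Vwa2, neighbouring genes whose starts could be placed. These read between 0% and 38.8%, with control means of 1.795% and 2.747%. Of the 12 Tdrd1 cytosines listed in all 6 libraries, 11 belonged to these neighbours. The remaining one, at position 56899678, read 88.7% in control, 86.9% for Tet1 and Tet2, 20.1% for Dnmt1, 86.7% for Dnmt3a, 86.3% for Dnmt3b and 85.4% in the double knockdown. The 3 cytosines at 56900711 to 56900805 read from 20% to 30% where listed, for Dnmt3b or for Tet1 and Tet2. The 11 others away from both neighbours, listed in part of the libraries, read from 75% to 100% outside the Dnmt1 library, which listed 2 of them at 15.8% and 18.4%.

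Among the members, Dazl, an RNA-binding protein that controls translation in germ cells, was read in most detail, with 48 cytosines in all 6 libraries over 796 bp. Its start was methylated and the methylation ended inside the gene at a sharp border. In control the 8 cytosines from 1 base before to 47 bases after the start (chr17:50432898-50432946) averaged 82.6%. The next 10, from 76 to 158 bases, averaged 59.2% ± 9.5 (SD), the 4 at 194 to 234 bases 76.5%, and the 4 at 378 to 472 bases 66.4%. Beyond that the 9 cytosines at 491 to 548 bases averaged 20.2% ± 5.1, the 8 at 598 to 645 bases 11% ± 2.9, and the 5 at 754 to 794 bases 5.06% ± 3.05. These stretches, and those of the other members, were delimited after the values were seen.

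The border lay between neighbouring plus-strand cytosines. At 461 bases the level in control was 81.6%, at 472 bases 51.3% and at 491 bases 14.5%. The same 3 cytosines read 82.9%, 58.7% and 24.0% for Tet1 and Tet2, 64.2%, 48.1% and 17.3% for Dnmt3a, 82.1%, 69.2% and 30.8% for Dnmt3b, and 70.3%, 48.4% and 25.3% in the double knockdown. The step thus stood at the same place in these 5 libraries. For Dnmt1 the 3 values were 15.4%, 23.1% and 7.7%.

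Mael, a piRNA pathway protein, had its lowest levels at the gene start. In control the 11 cytosines from 62 bases before to 74 after the start (chr1:168168801-168168937) averaged 23.2% ± 8.3 (SD). The 5 at 100 to 148 bases averaged 61.5% ± 4.5 and did not overlap with them, and the 8 at 160 to 326 bases averaged 40.3% ± 8.5. All 5 lay on the plus strand and their nearest neighbours on either side on the minus strand. Position and strand cannot be told apart at these 2 steps. The plus-strand cytosines listed in all 6 libraries before the start read from 8% to 34.5% in control. On the upstream side, 4 cytosines from 202 to 156 bases before the start were listed in control alone and averaged 68.2%. With them the promoter level of Mael in control was 41.4% instead of 23.5%.

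Ddx4, the RNA helicase of the germ plasm also known as Vasa, had a stretch of low level before its start and higher levels farther upstream, and no cytosine nearer than 93 bases to the start was listed. The 9 cytosines from 134 to 93 bases before its start (chr13:113442611-113442652) read from 4.5% to 33.3% in control, and 1 at 253 bases before read 67.3%. The 5 cytosines about 4 kb upstream (chr13:113446556-113446829) read from 82.7% to 91.7%. The RefSeq gene model of Ddx4 begins 323 bases upstream of the start used here, so the 9 cytosines lie between both starts.

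Asz1, an ankyrin repeat protein of the piRNA pathway, was methylated evenly across its start, from 50.6% to 82.8% in control over 116 bases before to 32 after it. Tex101, a glycoprotein of the germ cell surface, read from 75.8% to 89.8% over 28 bases before to 228 after its start. A further 6 Tex101 cytosines, 194 to 153 bases upstream and not listed for Dnmt1, averaged 85.6% ± 9.1 (SD) in control. Sycp3, a protein of the lateral elements of the synaptonemal complex, read from 26.3% to 71.8% at 7 cytosines (chr10:87922584-87922780), whose distance from the gene start is not known here.

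**Figure D2:**
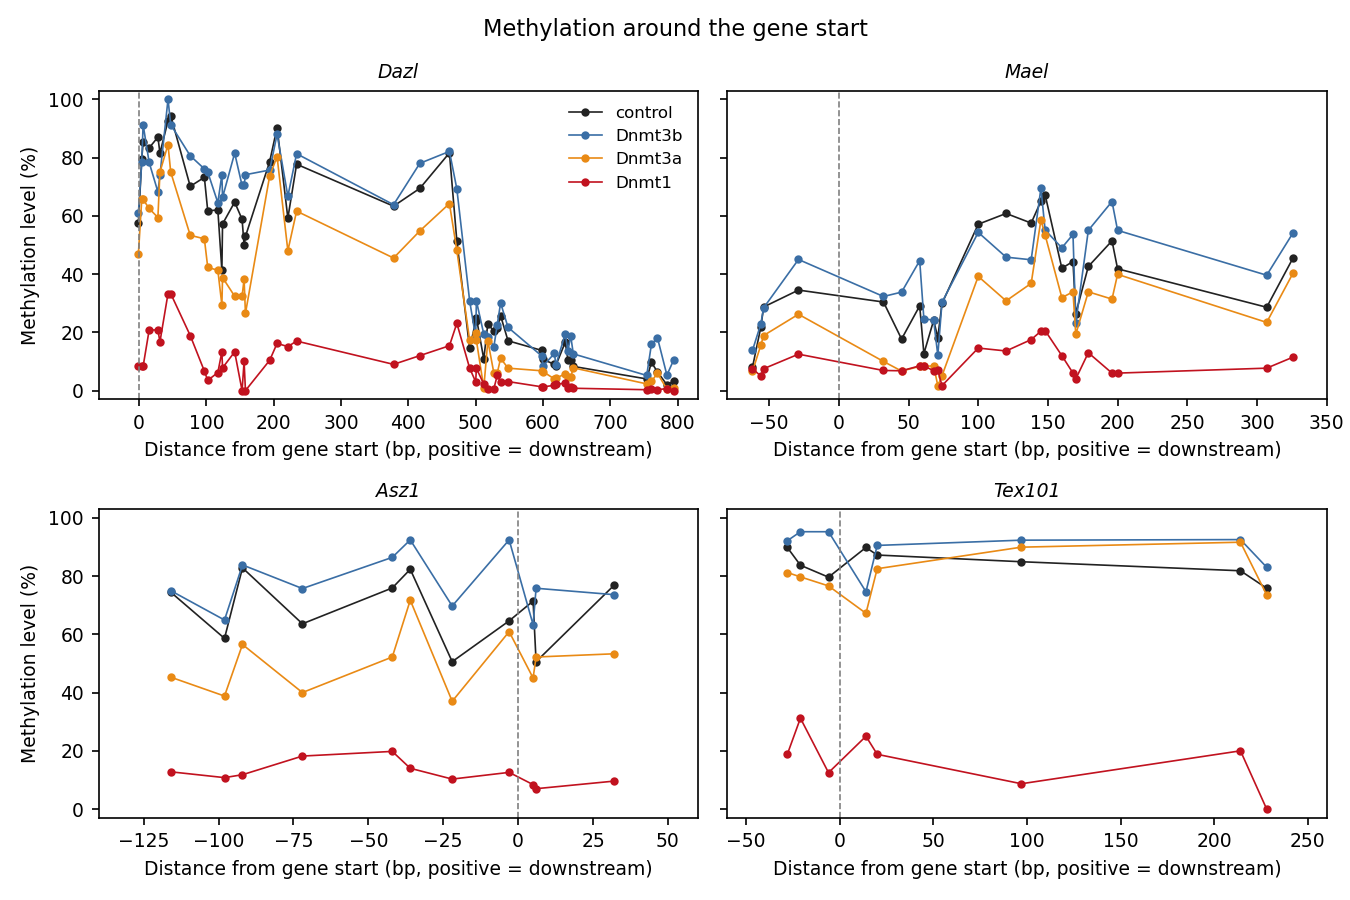
Methylation level (y axis, percent) against distance from the gene start (x axis, bp, downstream positive, dashed line at the start) for Dazl, Mael, Asz1 and Tex101 in the control, Dnmt3b, Dnmt3a and Dnmt1 libraries; each point is 1 cytosine listed in all 6 libraries. In control Dazl reads 81.6% at 461 bases and 14.5% at 491 bases, Mael is lowest near its start, and the Dnmt1 library lies lowest at nearly every cytosine, with exceptions near the start of Mael and in distal Dazl where Dnmt3a is as low or lower.

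After Dnmt1 knockdown, methylation read lowest of the 6 libraries at each of the 8 members with shared cytosines. Over the 126 member cytosines the mean was 8.85% against 44.8% in control, a difference of -35.9 ± 24.4 percentage points (SD over cytosines). It was above control at 0 cytosines, equal at 7 that read 0% in both, and below at all others. All 8 windows with shared cytosines were lower, and at Tdrd1 so was its 1 cytosine away from the neighbours. Of the 126 member cytosines, 86 (68.3%) were lower by at least 20 points, against 31.8% of all autosomal cytosines listed in the 6 libraries, and 0 were higher, against 0.00813%. The member cytosines were also more methylated in control than the autosomal cytosines they are set against (44.8% and 25.65%). Within cytosines of intermediate level (median over the 6 libraries from 20% to 80%) the share was 68 of 72 for the members and 96.9% for all, and the mean differences were -45.6 and -53.3 points. These members also stood lower in control, at 56.2% against 64.0%, and kept 18.9% of that level against 16.7% for all.

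The level left after Dnmt1 knockdown, as a percent of control, ranged from 6.85% (Sycp1, 1 cytosine) to 26.2% (Mael). It was 16.6% at Ddx4, 18.0% at Asz1, 18.7% at Dazl, 20.1% at Tex101 and 23.5% at Sycp3, around the 21.0% of all autosomal cytosines. That 21.0% pools all levels. By class, all autosomal cytosines kept 22.6% (low), 16.7% (intermediate) and 23.8% (high). At Asz1 the 11 cytosines averaged 68.3% in control, 73.9% for Tet1 and Tet2, 12.3% for Dnmt1, 50.3% for Dnmt3a, 77.5% for Dnmt3b and 64.0% in the double knockdown. The highest Dnmt1 value there, 19.8%, lay below the lowest of any other library, 37.0%. At Tex101 the 8 cytosines averaged 84.1%, 85.8%, 16.9%, 80.3%, 89.4% and 87.0% in the same order of libraries, and again only Dnmt1 did not overlap with the rest. At Dazl, the largest difference of a single member cytosine was -76.9 points, 6 bases after the start, where the level was 85.2% in control and 8.3% for Dnmt1.

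**Figure D3:**
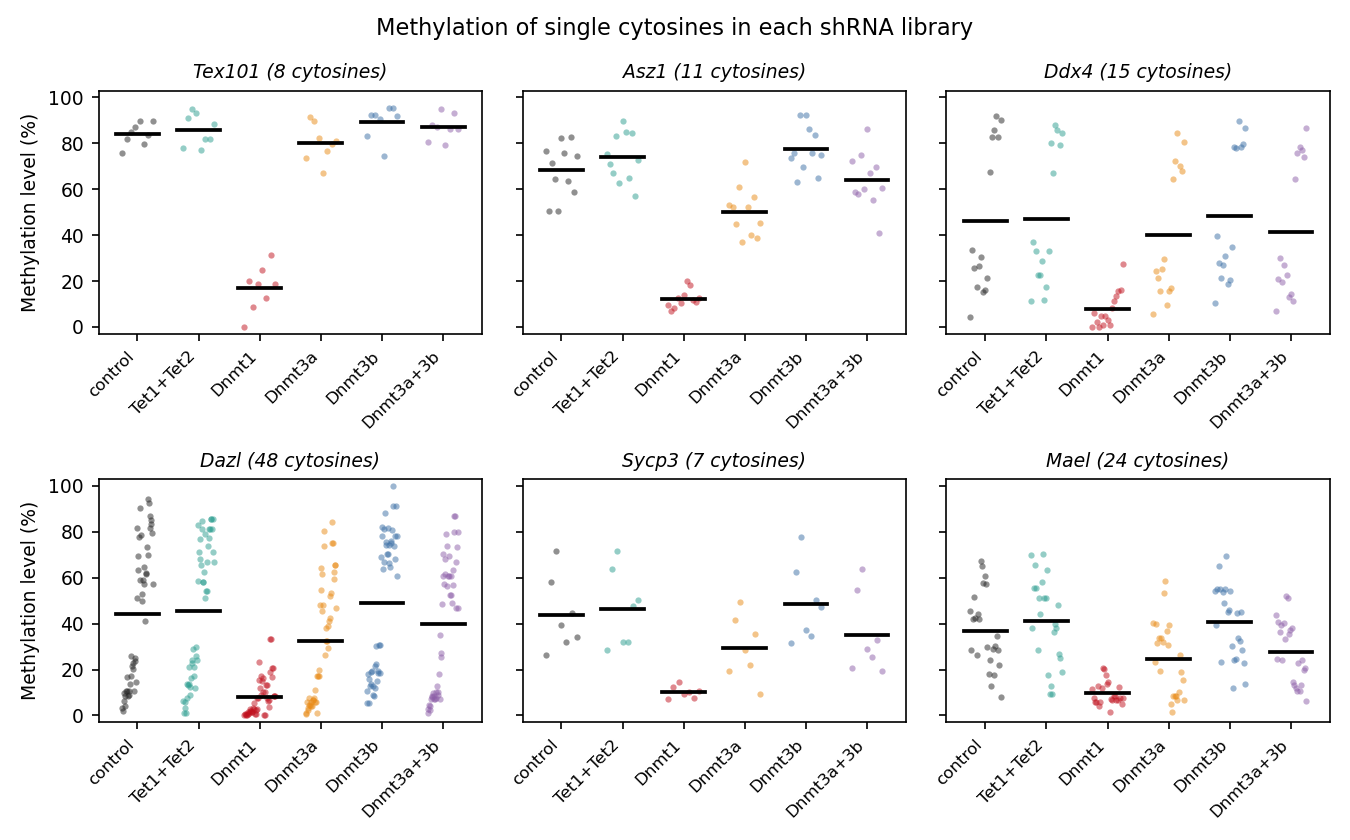
Methylation level (y axis, percent) of each cytosine listed in all 6 libraries (points) and their mean (black line) in the 6 shRNA libraries (x axis) for Tex101, Asz1, Ddx4, Dazl, Sycp3 and Mael. The Dnmt1 library is lowest at each gene, with means from 7.65% at Ddx4 to 16.9% at Tex101, and the Dnmt3a library is the next lowest.

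After Dnmt3a knockdown the members read lower than control, by amounts that varied between genes. The mean over the 126 cytosines was 34.4%, or -10.4 ± 8.8 points (SD) from control, with 112 cytosines below control and 7 above. Over all autosomal cytosines the mean difference was -4.02 points, and over those of intermediate level it was -15.3 points against -14.0 points for the 72 intermediate member cytosines. Of the 126, 24 (19.05%) were lower by at least 20 points, against 5.86% of all, and 0 were higher, against 0.0826%. Among intermediate ones it was 22 of 72 (30.6%) against 31.6%. The figures of intermediate members are therefore near those of other intermediate cytosines. High ones differed by -5.1 points for the members and -5.7 for all. Low ones differed by -5.78 points for the members and -1.05 for all, but these members stood higher in control (11.3% and 1.77%).

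Asz1, Sycp3, Mael and Dazl had the lowest readings relative to control. Asz1 differed by -18.1 ± 10.1 points (SD), Sycp3 by -14.4 ± 6.9, Mael by -12.4 ± 7.6 and Dazl by -11.7 ± 8.1. Mael was lower at 24 of 24 cytosines, Sycp3 at 7 of 7, Dazl at 47 of 48 and Asz1 at 10 of 11. Ddx4 differed by -5.81 ± 6.33 points, with 14 of 15 cytosines lower, and Tex101 by -3.80 ± 9.58, with 6 of 8 lower. Over all cytosines shared by control and Dnmt3a alone, the difference was -6.83 points at Tex101 (16 cytosines) and -22.4 points at Sycp3 (10). The Sycp3 value moved through the minus-strand cytosines given below, which lie close together and can share reads. As a share of control, the level left was 66.5% at Mael, 67.2% at Sycp3, 73.5% at Dazl, 73.5% at Asz1, 87.4% at Ddx4 and 95.5% at Tex101.

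Within 1 gene the Dnmt3a difference also varied. Mael's 11 cytosines around the start averaged 10.5% against 23.2% in control, where the 9 Ddx4 cytosines, of like control level, averaged 18.2% against 21.1%. Mael's minus-strand cytosines there read from 1.7% to 10% for Dnmt3a and from 12.7% to 30.4% in control. Its plus-strand ones read from 6.6% to 26.2% and from 8% to 34.5%. All 9 Ddx4 cytosines lie on the plus strand, so the contrast between the genes is also one between strands. In Dazl the stretch at 76 to 158 bases after the start differed by -20.5 points, the start itself by -15.8, and the low stretch at 754 to 794 bases by -2.50. The 3 minus-strand cytosines of Sycp3 (87922690, 87922704 and 87922712) that were not listed for Dnmt1 or in the double knockdown read 72.7%, 18.2% and 63.6% in control, 54.5%, 45.5% and 63.6% for Dnmt3b, and 12.5%, 12.5% and 6.2% for Dnmt3a.

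The double knockdown of Dnmt3a and Dnmt3b was closer to control than that of Dnmt3a alone. The same order held over all autosomal cytosines, with mean differences of -2.94 points for the double and -4.02 for Dnmt3a. Its mean over member cytosines was 39.96%, a difference of -4.83 ± 8.10 points (SD), with 92 cytosines below control and 27 above. In 7 of the 8 windows the mean was below control. It ranged from -9.20 points at Mael and -8.70 at Sycp3 to 2.88 points above control at Tex101, where the 16 cytosines shared by both libraries gave 1.22 points. By at least 20 points, 4 of 126 cytosines (3.17%) were lower, against 3.44% of all, and 0 higher, against 0.127%. Among the intermediate ones 4 of 72 (5.56%) were lower, against 18.5%. The intermediate member cytosines differed from control by -6.25 points and all intermediate cytosines by -11.0 points. High ones differed by -1.01 points for the members and -3.54 for all. Low ones went the other way, with -3.54 points for the members and -0.953 for all, and the low members also stood higher in control (11.3% and 1.77%). There is no replicate error for these gaps.

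The Dnmt3b library read above control at the members. The mean was 49.2%, or 4.36 ± 8.36 points (SD) above control, and 90 of 126 cytosines were above and 29 below. The 7 genes other than Tdrd1 had a higher mean, from 2.07 points at Ddx4 to 4.77 at Dazl, 5.35 at Tex101 (3.12 over the 16 cytosines shared by both libraries) and 9.21 at Asz1. The Tdrd1 window was higher by 1.45 points through cytosines near Ccdc186 and Vwa2, and its 1 other cytosine differed by -2.40 points. Over all autosomal cytosines the difference was 0.446 points. By level, it was 3.33 points for low, 4.89 for intermediate and 4.67 for high member cytosines, against 0.270, 1.47 and 0.209 points for all cytosines of those classes. Levels at least 20 points above control were seen at 5 member cytosines (3.97%), against 0.837% of all, and all 5 lay in Dazl and Asz1. They were 5 of the 72 intermediate members (6.94%), against 3.76% of all intermediate cytosines, and 0 members were lower, against 0.462% of all. Within Dazl the stretch at 76 to 158 bases after the start was higher by 14.1 points (73.3% ± 5.5 against 59.2% ± 9.5), while the start itself differed by -2.35 points. Most of that difference was on 1 strand. The minus-strand cytosines of the stretch read from 41.3% to 64.7% in control and from 70.4% to 81.5% for Dnmt3b. Its plus-strand cytosines read from 57.2% to 73.2% and from 64.5% to 80.6%. The 3 Dazl cytosines at least 20 points above control were all on that minus strand. Member cytosines share reads and lie in few places, and how often these loci would read this far above control in a second library of the same kind was not measured.

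Knockdown of Tet1 and Tet2 gave small differences at the members. The mean was 47.4%, or 2.61 ± 7.52 points (SD) above control, with 76 cytosines above and 43 below, and the 7 genes other than Tdrd1 had a higher mean (0.760 points at Ddx4 to 5.53 at Asz1). The Tdrd1 window was higher by 3.74 points, while its 1 cytosine away from the neighbours differed by -1.80 points (86.9% against 88.7%). Over all autosomal cytosines the difference was 1.40 points. Intermediate cytosines differed by 3.499 points for the members and 5.23 points for all. Levels at least 20 points above control were seen at 3 member cytosines (2.38%), 2 in Mael and 1 in Asz1, against 1.53% of all, and 0 were lower, against 0.358%. Of the intermediate members 2 of 72 were higher, against 7.22% of all intermediate cytosines. The Mael stretch at 160 to 326 bases after the start averaged 51.1% ± 13.7 against 40.3% ± 8.5 in control.

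**Figure D4:**
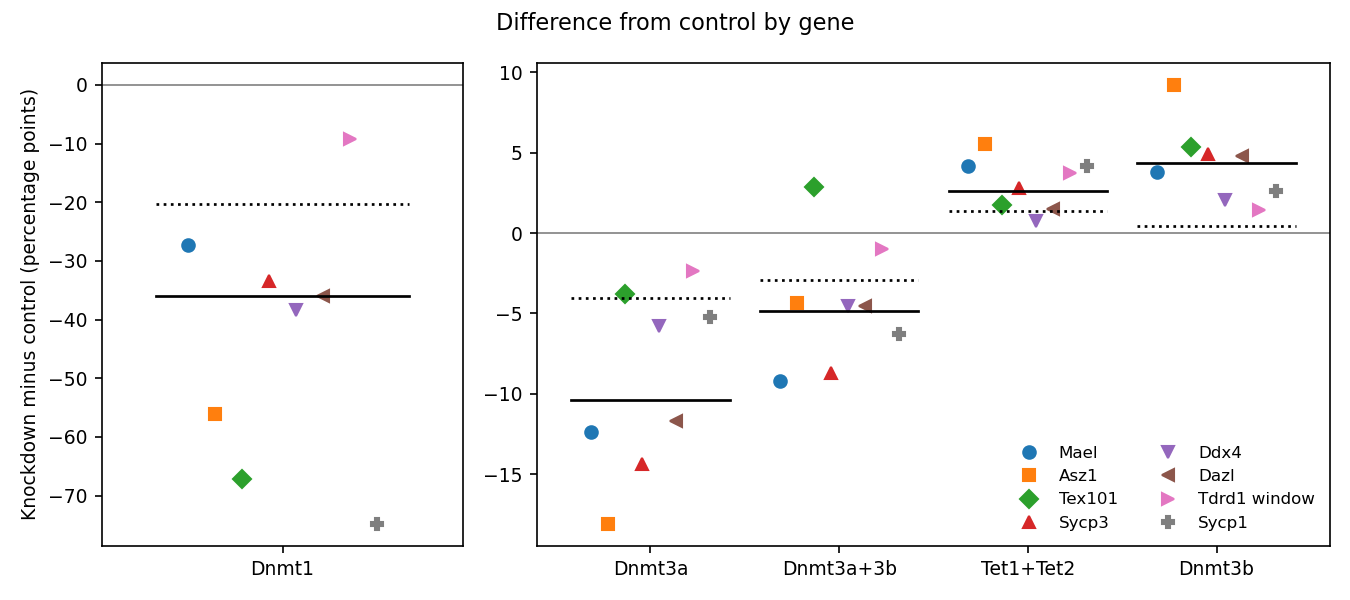
Difference from control (y axis, percentage points, separate scale for Dnmt1) of the mean level over cytosines listed in all 6 libraries, by gene (symbols) and knockdown (x axis). Solid lines are the mean over the 126 member cytosines and dotted lines the mean over all autosomal cytosines; Dnmt1 and Dnmt3a lie below 0 and Dnmt3b above 0 at each of the 7 genes other than Tdrd1, whose symbol is the whole window and rests on 11 neighbouring cytosines of 12.

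Joined into clusters of at least 5 cytosines at most 100 bp apart, the members formed 8 of the 22524 autosomal clusters: 3 in Dazl and 1 each in Mael, Ddx4, Asz1, Tex101 and the Ccdc186 end of the Tdrd1 window. A cluster counted as lower or higher when its mean moved by 20 points or more and 80% or more of its cytosines moved that way. For Dnmt1, 5 of 8 were lower, against 22.9% of all clusters and 96.2% of intermediate ones, and these were Mael, Asz1, Tex101 and 2 of Dazl. Ddx4, the distal Dazl cluster and the Ccdc186 cluster, at 21.1%, 5.06% and 0% in control, were not called. None of the 8 was called for Dnmt3a, where 3.36% of all clusters and 24.7% of intermediate ones were lower, for the double (1.29% of all lower) for Dnmt3b (0.0222% of all lower and 0.0799% higher) or for Tet1 and Tet2 (0.0178% and 0.222%).

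The 2 strands of a cluster are read from different molecules of the same library. For Dnmt3a the Mael cluster read 31.8% on the plus strand against 44.5% in control and 18.4% against 31.6% on the minus strand. The Asz1 cluster read 54.8% against 64.8% and 46.5% against 71.3%, and the Dazl cluster at the start 54.6% against 70% and 53.3% against 71.4%, so each was lower on both strands. For Dnmt3b the Asz1 cluster read 83.3% against 64.8% on the plus strand and 72.7% against 71.3% on the minus strand, and most of the difference there was on 1 strand. At the Dazl start the Dnmt3b values were 74.9% against 70% and 77.9% against 71.4%.

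A single cytosine is an uncertain measure. Among member CpGs, 4 had both strands in all 6 libraries. In control their strands differed by 1.2, 15.9, -5.9 and -20.8 points (plus minus minus), where the SD over 2353 intermediate CpGs of all autosomes was 17.7 points. A difference of 20 points is about the size of this spread, which is between strands of 1 library and not between libraries. Over 57525 intermediate autosomal cytosines, the SD of the difference from control ranged from 10.2 points (Dnmt3b) to 17.2 points (Dnmt1). The means by gene rest on 7 to 48 cytosines, apart from Sycp1 with 1 and Tdrd1, where only 1 of the window's 12 lies away from the neighbouring genes. Those cytosines neighbour each other on the same reads and are not replicates, so their number does not give the error of a mean.

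Other germline genes were placed in the same way from a list of 47. The promoter table held 39, of which 17 could be placed and 8 had a level. Fkbp6, a co-chaperone of meiosis and the piRNA pathway, was the only one of at least 50% in control. It read 79.8% in control, 83.2% for Tet1 and Tet2, 19.01% for Dnmt1, 76.5% for Dnmt3a, 77.7% for Dnmt3b and 79.4% in the double knockdown, a pattern in which only Dnmt1 stood apart. The others are named after their values were seen. Tuba3a, a tubulin of the testis, stood at 46.2% in control, Slc25a31, an ADP/ATP carrier of germ cells, at 44.2%, and Hormad1, a protein of the meiotic chromosome axis, at 36.6%. Meioc, Tdrkh and Tdrd5 stood at 4.84%, 2.04% and 0%. Mov10, on the list although its use is not confined to germ cells, stood at 0.380%, and the promoter of the separate list entry Mov10l1 could not be placed.

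Hormad1 and Slc25a31 were lower for Dnmt3a, at 23.0% and 34.0%, and for the double knockdown, at 21.4% and 37.5%. Tuba3a read 49.2% for Dnmt3a, and 75.03% for Dnmt3b and 73.03% for Tet1 and Tet2, over 4 cytosines. Of the 74 promoters of intermediate level, 23% were lower by at least 20 points for Dnmt3a, and their median difference was -15.7 points. The member promoters of that class differed by -18.1 (Asz1) and -15.8 points (Dazl). Tex101, of the high class, differed by -8.58 points, where the mean of the 25 high promoters was -6.85. Mael and Ddx4, of the low class by their median over the 6 libraries, differed by -9.52 and -2.91 points, where the mean of 4674 low promoters, most of them near 0%, was -0.364.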

How the data were processed

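The 6 libraries, 1 per shRNA group of E14 cells, were made from MspI-digested, bisulfite-converted DNA, per the labels' protocols. CASAVA 1.8, Bismark 0.10.1 and mm9 are named in the submitters' processing notes without their roles. The deposited values are methylation fractions of single CpG cytosines with 3 decimals. Neither the files nor the labels give counts, coverage or a coverage minimum. The plan's coverage minimum was therefore not run. Between 67 and 135 cytosines per library had no level and were left out. Fractions were turned into percent and matched between libraries on position, strand and sequence context (NumPy 2.4.6, pandas 2.3.3, Python 3.11.15).

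The members and lists were chosen with earlier results of these data known. RefSeq promoters were placed where at least 4 listed cytosines fitted in spacing and context, none failed and 1 place was found: 8288 of 32851 were placed, and 99.7% of them stood within 20000 bp of the shift of neighbouring promoters on the same chromosome. Where several promoters of a gene were placed, the one with most shared cytosines was used for its level. The named items were all 9 members, every cluster, and other germline promoters of at least 50% in control. Placement and cluster calls were tested on simulated data.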

Additional observations from a re-analysis of the deposited data

How the results depend on the processing

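Of 218 values under alternatives, 192 stayed on the same side and within 1.5 times of the value reported, and 2 changed sign. The mean differences over all member cytosines stayed so under every set of cytosines, weighting and gene left out, and without the cytosines near Ccdc186 and Vwa2, an alternative chosen after the data were seen. Of the 40 gene mean differences, 5 moved by more than 1.5 times on cytosines shared by control and the knockdown alone: Sycp3 for Dnmt3a (-22.4 points), Tex101 for Dnmt3a (-6.83), Dnmt3b (3.12) and the double (1.22), and Tdrd1 for the double (-0.542). Without the neighbours' cytosines Tdrd1 rested on 1 cytosine and changed sign for Dnmt3b (-2.40) and for Tet1 and Tet2 (-1.80), and read -68.6 for Dnmt1 and -3.30 for the double. Counts moved with the difference required. At 10 points, member cytosines were lower 57 times for Dnmt3a, 33 for the double, 6 for Dnmt3b and 6 for Tet1 and Tet2, and higher 30 times for Dnmt3b, 18 for Tet1 and Tet2 and 5 for the double. At 30 points, 1 was lower for Dnmt3a and 1 for the double, 1 was higher for Dnmt3b and 0 for Tet1 and Tet2. With cytosines shared by control and the double alone, 1 was higher. At 10 points 3 member clusters were lower for Dnmt3a. For Dnmt1, 3 were lower at 30 points and 8 with clusters of at least 3 cytosines. Clusters of at least 10 cytosines left 4 in the windows. Mael's promoter level in control was 41.4% over control's own cytosines. No paired analysis was possible because each group has 1 library. For the same reason no library could be left out. Depth is unknown, so no counting interval is given.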
